A study of Mus musculus with 16 samples.

Results

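Ngef, Serpinb1c, Cnmd, Lman1l and Pak3 are transcripts that, in at least 1 of the viruses studied, lay near 0 in either sham or pressure-overloaded hearts and were higher in every mouse of the other group. They are 5 of the 55573 genes in the deposited count table. The genes were chosen by the measured counts themselves, for being near 0 in sham or in TAC hearts, with all 16 mice in view and no virus named. Every comparison of the 5 genes is therefore a description with no test.

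RNA from the apex of the heart was sequenced in 16 male wild-type mice, 4 in each of 4 groups. Every mouse had received AAV9, an adeno-associated virus, as a newborn. In the AAV9-GFP groups (labelled AAV9-cTNT-GFP) it carried green fluorescent protein, and in the AAV9-Cardinal groups (labelled AAV9-cTNT-CARDINAL) it carried the mouse long noncoding RNA Cardinal, in both cases behind the cardiac troponin T promoter, which is active in cardiomyocytes, so the transgene was not driven in other heart cells. Mice of each virus underwent transverse aortic constriction (TAC), in which the aorta was tied against a 26-gauge needle so that the left ventricle pumped against a raised pressure, or a sham operation without the tie, and hearts were taken 4 weeks later. No group went without virus, so effects of AAV9 itself are shared by all 4 groups.

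Pressure overload enlarges cardiomyocytes, restarts fetal genes such as Nppa and Nppb (the natriuretic peptides) and activates fibroblasts. The 5 genes belong to families better known outside the ventricle. Ngef (ephexin-1) is a guanine nucleotide exchange factor that turns on small GTPases below EphA receptors and is known from neurons. Pak3 is a p21-activated kinase, a Rac and Cdc42 effector that is also known from neurons. Serpinb1c is a clade B serpin, of a family whose members inhibit serine proteases inside cells. Lman1l is a relative of Lman1, a lectin that carries glycoproteins from the endoplasmic reticulum to the Golgi. Cnmd (chondromodulin) is a cartilage glycoprotein that restrains the growth of blood vessels and is also known from heart valves.

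The counts of a mouse summed to between 16441997 and 21904589 over all genes. At that depth 3 counts, taken here as the floor of detection, equal between 0.126 and 0.195 CPM (counts scaled to library totals adjusted by TMM), and this floor covers counting error only. All 5 genes passed the filter on low counts that left 16857 genes for testing, but each had to do so through the group in which it was high. Genes that check the labels were as follows. Cardinal (Gm12295) averaged 4.77 and 4.88 CPM in AAV9-GFP sham and TAC hearts. It averaged 31.0 ± 6.25 CPM in AAV9-Cardinal sham and 38.1 ± 37.3 CPM in AAV9-Cardinal TAC hearts (SD, n = 4). The AAV9-Cardinal TAC mice ran from 18.3 to 93.9 CPM and the lowest AAV9-Cardinal sham mouse was at 26.2 CPM. Cardinal was therefore not higher after TAC in every AAV9-Cardinal mouse. Nppa went from 61.3 ± 25.6 to 734 ± 456 CPM (SD, n = 4) with AAV9-GFP. The Nppa means in AAV9-Cardinal sham and TAC hearts were 68.1 ± 26.5 and 259 ± 96.3 CPM (SD, n = 4). Nppb averaged 75.0 and 291 CPM in AAV9-GFP sham and TAC hearts and 52.1 and 204 CPM with AAV9-Cardinal, while Myh7, the slow myosin heavy chain, stayed between 3336 and 3511 CPM in all 4 group means. The 6 cardiomyocyte markers examined were present in every group, and their summed level ran from 38970 to 41998 CPM in AAV9-GFP sham, from 29913 to 36027 CPM in AAV9-GFP TAC, from 37750 to 41563 CPM in AAV9-Cardinal sham and from 36242 to 39122 CPM in AAV9-Cardinal TAC hearts.

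The stretch of DNA before the start of each gene is shown because 4 of the genes were higher after TAC and 1 was lower, and the letters let their starts be compared. The sequences are the 250 bases before the RefSeq transcription start on GRCm38.p6, on the strand of the gene. Capitals mark matches, on either strand, to short motifs named below. Where RefSeq lists several starts, the one nearest to the 5′ end of the GENCODE gene is shown.
Ngef: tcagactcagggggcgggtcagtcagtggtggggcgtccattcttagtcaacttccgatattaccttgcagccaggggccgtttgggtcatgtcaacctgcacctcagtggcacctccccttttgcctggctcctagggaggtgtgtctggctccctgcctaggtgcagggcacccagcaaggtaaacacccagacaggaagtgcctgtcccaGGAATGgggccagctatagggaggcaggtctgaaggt
Serpinb1c: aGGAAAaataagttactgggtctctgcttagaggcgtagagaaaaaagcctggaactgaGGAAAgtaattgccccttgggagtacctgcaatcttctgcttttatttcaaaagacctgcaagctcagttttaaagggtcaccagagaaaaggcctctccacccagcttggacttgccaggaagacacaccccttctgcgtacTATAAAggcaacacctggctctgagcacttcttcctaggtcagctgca
Cnmd: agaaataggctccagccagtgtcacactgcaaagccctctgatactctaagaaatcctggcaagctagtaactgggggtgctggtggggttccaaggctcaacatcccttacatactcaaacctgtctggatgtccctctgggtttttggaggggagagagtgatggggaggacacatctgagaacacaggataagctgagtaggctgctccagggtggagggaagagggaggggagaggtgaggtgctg
Lman1l: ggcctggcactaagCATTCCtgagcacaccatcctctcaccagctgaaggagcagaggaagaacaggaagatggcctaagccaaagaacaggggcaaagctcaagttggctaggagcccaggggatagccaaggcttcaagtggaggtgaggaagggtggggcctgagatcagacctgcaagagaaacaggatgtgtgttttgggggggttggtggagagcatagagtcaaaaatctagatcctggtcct
Pak3: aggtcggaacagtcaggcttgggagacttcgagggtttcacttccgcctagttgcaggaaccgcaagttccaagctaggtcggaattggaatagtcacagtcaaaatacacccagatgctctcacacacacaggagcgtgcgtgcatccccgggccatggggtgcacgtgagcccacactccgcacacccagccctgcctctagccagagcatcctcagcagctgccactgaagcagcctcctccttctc

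These windows lie at chr1:87573871-87574120 for Ngef, chr13:32898141-32898390 for Serpinb1c, chr14:79662184-79662433 for Cnmd and chr9:57620775-57621024 for Lman1l, all on the minus strand, and at chrX:143518341-143518590 on the plus strand for Pak3. The window searched also held the first 50 transcribed bases, which are not shown. GGAAA, the core bound by NFAT, was found in Serpinb1c at 2 places and in Ngef only after the start, and 61.3% of the 32851 promoters in the table hold it. CATTCC, the M-CAT element bound by TEAD factors, was found in Ngef (as its reverse complement) and Lman1l, against 14.7% of all promoters. TATAAA was found in Serpinb1c, 48 bases before the RefSeq start, against 13.6% of all promoters. That start lies 71 bases inside the GENCODE gene, so the last 71 bases shown for Serpinb1c, with this match, fall within the annotated gene. TGACTCA, bound by AP-1, is held by 5.2% of promoters and was found in none of the 5 windows. The same was true of AGATAA, bound by GATA factors, which 11.2% of promoters hold. None of the matches overlapped another. Cnmd and the first Pak3 start held none of the 5 motifs. The second of the 3 Pak3 starts in the table held GGAAA and CATTCC, and the other listed start of Serpinb1c held none. None of the 5 motifs was found in all 4 genes that were higher after TAC, and a match of this kind is a description, not a binding site.

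Ngef (ENSMUSG00000026259) spans 87476834 to 87573870 on the minus strand of chromosome 1 of GRCm38 and has 4 annotated transcripts. Its counts were 4, 0, 0 and 0 in the AAV9-GFP sham mice and 17, 31, 21 and 29 in the AAV9-GFP TAC mice. They were 9, 0, 0 and 0 in the AAV9-Cardinal sham mice and 12, 5, 0 and 9 in the AAV9-Cardinal TAC mice. The AAV9-GFP groups did not overlap, and the AAV9-Cardinal groups did, since 1 TAC mouse had no count and 1 sham mouse had as many as the second-highest TAC mouse. With AAV9-GFP the mean went from 0.0473 ± 0.0946 to 1.05 ± 0.276 CPM (SD, n = 4), a ratio of 21.8 (95% counting interval 8.25 to 81.7). Here and below, a ratio or fold is of the counts summed over a group and divided by its summed, TMM-adjusted library totals. Its counting interval covers counting error only and leaves out the spread between mice. With AAV9-Cardinal the mean went from 0.102 ± 0.203 to 0.295 ± 0.231 CPM (SD, n = 4). The ratio was 2.65 (95% counting interval 1.20 to 6.43) and the fitted log2 fold change 1.37 (SE 1.02).

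Within TAC hearts, Ngef counts in the AAV9-Cardinal mice (0 to 12) all lay below those in the AAV9-GFP mice (17 to 31). The groups differed by 3.53-fold (95% counting interval 2.27 to 5.67), with a fitted log2 difference of -1.80 (SE 0.70). The difference between the viruses in the log2 response to TAC was -2.92 units (SE 1.64, approximate 95% interval -6.13 to 0.29). The sham mean rested on 1 mouse in each virus. Without AAV9-GFP sham replicate 1 the sham group was at 0, and the ratio was at least 21.7-fold higher in TAC, against 3 counts over the group. Without AAV9-Cardinal sham replicate 1 it was at least 5.75-fold higher in AAV9-Cardinal TAC hearts.

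A part of the Ngef exons, 123 bases, is shared with Neu2, a sialidase gene on the opposite strand, and 1.92% of the 50-base stretches of Ngef transcripts also occur in Neu2. Whether the counting used strand is not given in the sources used here, so reads from that stretch cannot be told apart. Neu2 had between 0 and 7 counts in any mouse and averaged 0.110 CPM in AAV9-GFP sham and 0.119 CPM in AAV9-GFP TAC hearts.

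Serpinb1c (ENSMUSG00000079049) spans 32881434 to 32898211 on the minus strand of chromosome 13. Its counts were 6, 4, 0 and 0 in AAV9-GFP sham hearts and 41, 86, 37 and 49 in AAV9-GFP TAC hearts. In AAV9-Cardinal hearts they were 5, 0, 0 and 3 after sham surgery and 37, 7, 18 and 17 after TAC. The groups did not overlap in either virus, and the lowest AAV9-Cardinal TAC mouse, with 7 counts, was close to the highest sham mouse, with 5. With AAV9-GFP the mean went from 0.119 ± 0.142 to 2.28 ± 0.912 CPM (SD, n = 4), a ratio of 19.0 (95% counting interval 10.1 to 40.1). With AAV9-Cardinal it went from 0.105 ± 0.122 to 0.897 ± 0.544 CPM (SD, n = 4), a ratio of 9.06 (95% counting interval 4.38 to 21.7). The fitted log2 fold change with AAV9-Cardinal was 3.09 (SE 0.80).

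In TAC hearts Serpinb1c was 2.52-fold lower in the AAV9-Cardinal mice than in the AAV9-GFP mice (95% counting interval 1.94 to 3.31), as a log2 difference of -1.33 (SE 0.49), with 1 AAV9-Cardinal and 1 AAV9-GFP mouse both at 37 counts. The difference between the viruses in the response to TAC was -1.08 log2 units (SE 1.34, approximate 95% interval -3.72 to 1.55).

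Serpinb1c has close relatives that share a small part of its transcript sequence. Of its 1672 distinct 50-base stretches, 105 (6.28%) also occur in transcripts of Serpinb1a, Serpinb1b or the pseudogene Serpinb1-ps1, so some reads could have been counted on either gene. Serpinb1b and Serpinb1-ps1 had 0 counts in all 16 mice. Serpinb1a, an inhibitor of neutrophil proteases, averaged 1.51 ± 0.344 and 2.46 ± 0.375 CPM in AAV9-GFP sham and TAC hearts and rose there (log2 fold change 0.70, SE 0.19, edgeR adjusted p = 0.0181), and it averaged 1.43 and 1.86 CPM in AAV9-Cardinal sham and TAC hearts (log2 fold change 0.37, SE 0.20, adjusted p = 0.289). Per length of exon, Serpinb1a was at 0.654 and Serpinb1c at 0.0729 CPM per kilobase in AAV9-GFP sham hearts, and they were at 1.07 and 1.40 CPM per kilobase after TAC.

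Lman1l (ENSMUSG00000056271) spans 57607085 to 57620774 on the minus strand of chromosome 9. Its counts were 0, 0, 9 and 0 in AAV9-GFP sham hearts and 43, 55, 33 and 56 in AAV9-GFP TAC hearts. They were 11, 0, 0 and 0 in AAV9-Cardinal sham hearts and 49, 31, 36 and 35 in AAV9-Cardinal TAC hearts. All 8 TAC mice were at 31 counts or more and all 8 sham mice at 11 or fewer. With AAV9-GFP the mean went from 0.110 ± 0.220 to 2.01 ± 0.454 CPM (SD, n = 4), a ratio of 18.5 (95% counting interval 9.54 to 41.1). The fitted log2 fold change was 4.13 (SE 0.77). With AAV9-Cardinal the mean went from 0.124 ± 0.249 to 1.73 ± 0.307 CPM (SD, n = 4), a ratio of 12.6 (95% counting interval 6.84 to 25.8).

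In TAC hearts the Lman1l counts of both viruses overlapped. AAV9-Cardinal and AAV9-GFP TAC hearts differed by -0.21 log2 units (SE 0.50, approximate 95% interval -1.20 to 0.77), and the responses to TAC by -0.52 units (SE 1.33, interval -3.13 to 2.09). The sham mean again rested on 1 mouse in each virus. Without AAV9-GFP sham replicate 3 the TAC group was at least 41.8-fold higher, and without AAV9-Cardinal sham replicate 1 at least 33.4-fold higher, against 3 counts over the sham group. No 50-base stretch of Lman1l occurs in another annotated transcript. Per kilobase of exon it stayed below Lman1, at 1.19 against 6.23 CPM per kilobase in AAV9-GFP TAC hearts.

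Pak3 (ENSMUSG00000031284) spans 143518591 to 143797796 on the plus strand of chromosome X, with 10 annotated transcripts and 9552 bases of exon. Its counts were 0, 0, 5 and 0 in AAV9-GFP sham hearts and 9, 12, 27 and 13 in AAV9-GFP TAC hearts. In AAV9-Cardinal hearts they were 2, 4, 0 and 3 after sham surgery and 6, 8, 28 and 51 after TAC. All TAC mice were above all sham mice of the same virus, and the AAV9-Cardinal TAC mice were the most unequal, with a pair of mice under 10 counts and a pair over 25. With AAV9-GFP the mean went from 0.0612 ± 0.122 to 0.659 ± 0.356 CPM (SD, n = 4), a ratio of 10.9 (95% counting interval 4.41 to 34.6). The fitted log2 fold change was 3.32 (SE 1.03). Without AAV9-GFP sham replicate 3, the sham mouse with counts, the TAC group was at least 13.6-fold higher.

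With AAV9-Cardinal the Pak3 mean went from 0.118 ± 0.0916 to 1.07 ± 0.969 CPM (SD, n = 4), a ratio of 9.48 (95% counting interval 4.78 to 21.4). Without AAV9-Cardinal TAC replicate 6, which had 51 counts, the AAV9-Cardinal TAC mean was 0.650 CPM. AAV9-Cardinal TAC hearts differed from AAV9-GFP TAC hearts by 0.70 log2 units (SE 0.64), and the responses to TAC differed by -0.15 units (SE 1.22). For its length, Pak3 in sham hearts was at 0.00641 CPM per kilobase with AAV9-GFP and 0.0123 CPM per kilobase with AAV9-Cardinal, from counts around the floor. No 50-base stretch of it occurs in another annotated transcript.

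Cnmd (ENSMUSG00000022025) spans 79637690 to 79662170 on the minus strand of chromosome 14 and was the only member lower after TAC. Its counts were 24, 17, 36 and 18 in AAV9-GFP sham hearts and 5, 0, 0 and 0 in AAV9-GFP TAC hearts. They were 23, 13, 15 and 25 in AAV9-Cardinal sham hearts and 5, 11, 5 and 5 in AAV9-Cardinal TAC hearts. The groups did not overlap in either virus, and every AAV9-Cardinal TAC mouse had counts while 3 of the 4 AAV9-GFP TAC mice had none. With AAV9-GFP the mean went from 1.15 ± 0.433 to 0.0536 ± 0.107 CPM (SD, n = 4), a ratio of 21.3 (95% counting interval 8.83 to 67.2) of sham over TAC. Without AAV9-GFP TAC replicate 1 the TAC group was at 0, at least 26.6-fold lower than sham.

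With AAV9-Cardinal the Cnmd mean was 0.997 ± 0.456 CPM after sham surgery and 0.300 ± 0.145 CPM after TAC (SD, n = 4), a ratio of 3.19 (95% counting interval 2.02 to 5.18) of sham over TAC. The fitted log2 fold change was -1.68 (SE 0.52). In TAC hearts Cnmd was 5.56-fold higher with AAV9-Cardinal than with AAV9-GFP (95% counting interval 2.099 to 18.5). The log2 difference was 2.36 (SE 0.83). The mice of both viruses met at 5 counts, the highest with AAV9-GFP and the lowest with AAV9-Cardinal. Only the scaling to CPM parted them (0.214 CPM against 0.221 CPM or more). The log2 response to TAC differed between the viruses by 2.59 units (SE 0.94, approximate 95% interval 0.75 to 4.44). Cnmd was chosen for its low counts after TAC, so this too is a description, and the interval is not read as a test.

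**Figure D1:**
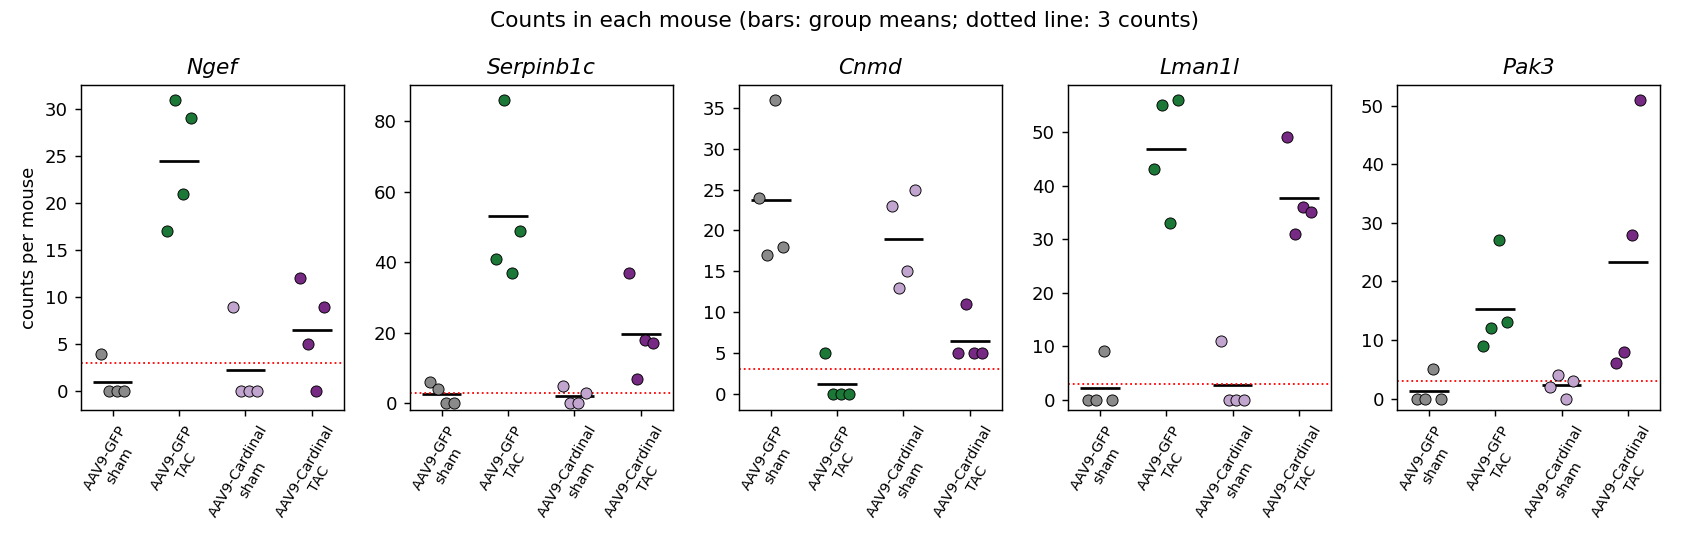
Counts of each gene in each of the 16 mice, by group, 1 point per mouse. Horizontal bars are group means, the dotted line marks 3 counts, and the y axis is linear and differs between panels. Ngef, Serpinb1c, Lman1l and Pak3 sit at 11 counts or fewer in sham mice, Lman1l reaches 31 to 56 in TAC mice, and Cnmd runs the other way.

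Ratios of counts are given above because a fitted fold change of a gene near 0 depends on the prior count. With the default prior count of the fit, the log2 fold change was 4.29 (SE 0.98) for Ngef, 4.18 (SE 0.69) for Serpinb1c and -4.28 (SE 0.68) for Cnmd with AAV9-GFP, and 3.61 (SE 0.76) for Lman1l and 3.18 (SE 0.87) for Pak3 with AAV9-Cardinal. With a prior count of 2 the Ngef value became 3.02 and the Cnmd value -3.08.

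**Figure D2:**
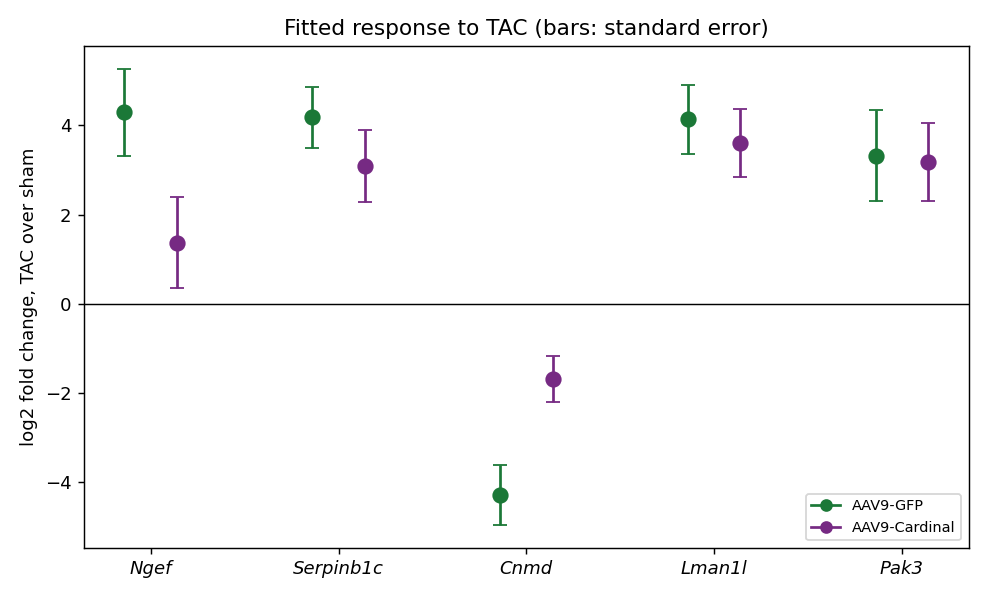
Fitted log2 fold change of TAC over sham (y axis) for each gene (x axis) in AAV9-GFP and AAV9-Cardinal hearts. Bars are standard errors. Points are coloured by virus. Cnmd is the gene below 0 in both viruses, and Ngef shows 4.29 with AAV9-GFP beside 1.37 with AAV9-Cardinal.

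Across the 16857 genes tested with edgeR at an adjusted p of 0.05, 8.49% were called higher and 8.92% lower after TAC with AAV9-GFP, and 3.10% higher and 3.38% lower with AAV9-Cardinal. These shares are the background for the gene lists further on.

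The sham and TAC mice of the 5 genes did not overlap in either virus, except for Ngef with AAV9-Cardinal, and nothing is read from this because such counts chose the genes. Over the whole table, 7 genes with AAV9-GFP and 5 with AAV9-Cardinal had a sham mean under the floor of 0.126 CPM, a TAC mean of at least 1 CPM and no overlap. In the other direction there were 3 genes with AAV9-GFP, of which only Cnmd passed the filter for testing, and 0 with AAV9-Cardinal. Lman1l was the gene found in both virus lists. Just inside the limit of 1 CPM lay the predicted gene Gm30873 with AAV9-GFP (1.03 CPM after TAC) and Kif4, a mitotic kinesin, with AAV9-Cardinal (1.02 CPM). Just outside lay Gm29773 (0.855 CPM) and Halr1 (0.909 CPM). The Pak3 mean of 1.07 CPM in AAV9-Cardinal TAC hearts and the Ngef mean of 1.05 CPM in AAV9-GFP TAC hearts were thus close to that limit.

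Levels can be ordered between genes only per length of exon. In AAV9-GFP TAC hearts the order was Serpinb1c at 1.40 ± 0.559 CPM per kilobase, Lman1l at 1.19 ± 0.269, Ngef at 0.269 ± 0.0706, Pak3 at 0.0690 ± 0.0373 and Cnmd at 0.0291 ± 0.0581 (SD, n = 4). Serpinb1c and Lman1l differed by less than their spread, as did Pak3 and Cnmd. In AAV9-Cardinal TAC hearts Lman1l was highest at 1.03 ± 0.182 CPM per kilobase, followed by Serpinb1c at 0.549 ± 0.333, Cnmd at 0.163 ± 0.0784, Pak3 at 0.112 ± 0.101 and Ngef at 0.0756 ± 0.0592, where Cnmd and Pak3, and Pak3 and Ngef, differed by less than their spread. In sham hearts Cnmd led with 0.623 ± 0.235 CPM per kilobase with AAV9-GFP and 0.541 ± 0.247 with AAV9-Cardinal, and the other 4 were at or below 0.0737.

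Mouse by mouse, the summed counts of Ngef, Serpinb1c, Lman1l and Pak3 ran from 0 to 27 in the 8 sham mice and from 51 to 184 in the 8 TAC mice. AAV9-GFP sham replicate 4 and AAV9-Cardinal sham replicate 3 had 0 counts of all 4 genes. AAV9-Cardinal sham replicate 1 had the highest sham sum, with 9 counts of Ngef, 5 of Serpinb1c, 11 of Lman1l and 2 of Pak3, and also the highest Nppa among sham mice (106 CPM). AAV9-GFP TAC replicate 3 had the highest sum, 184, the highest Nppa, 1396 CPM, and no Cnmd count. Elsewhere the sum and Nppa parted. AAV9-GFP sham replicate 2 had a sum of 4 with 96.0 CPM of Nppa. AAV9-Cardinal TAC replicate 5 had a sum of 82 with the lowest Nppa of the TAC mice, 183 CPM. The lowest sum in a TAC mouse, 51, was in AAV9-Cardinal TAC replicate 4, which had the most Cnmd of the TAC mice (11 counts). The genes did not move as a block within TAC hearts: AAV9-Cardinal TAC replicate 5 had 0 counts of Ngef with 28 of Pak3, and replicate 1 had the most Ngef, Serpinb1c and Lman1l of its group with the fewest Pak3 counts (6).

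Very small counts were scarce among these values. Of the 80 values (5 genes in 16 mice), 24 were 0, none was 1, 1 was 2, 2 were 3, 3 were 4 and 7 were 5. The smallest count above 0 was 9 for Lman1l, 5 for Cnmd and 4 for Ngef. The same held for genes of the table with a mean count from 5 to 20, but not for rarer ones. For the 2294 genes with a mean from 2 to 5, 17.8% of values were 0, 5.55% were 1 and 16.7% were 2. Of the values of the 1745 genes with a mean count from 5 to 10, 6.78% were 0 while 0.659% were 1 and 1.93% were 2, and for a mean from 10 to 20 these shares were 2.65%, 0.213% and 0.202%. The program that made the counts is not given in the sources used here, and the part it may have in these 0 values was not tested. A listed 0 in a sham heart is therefore a deposited value of 0. If the deposited counts are not whole reads but were rescaled from coverage, the floor of 3 counts, the counting intervals and the folds given as "at least" do not hold as stated.

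**Figure D3:**
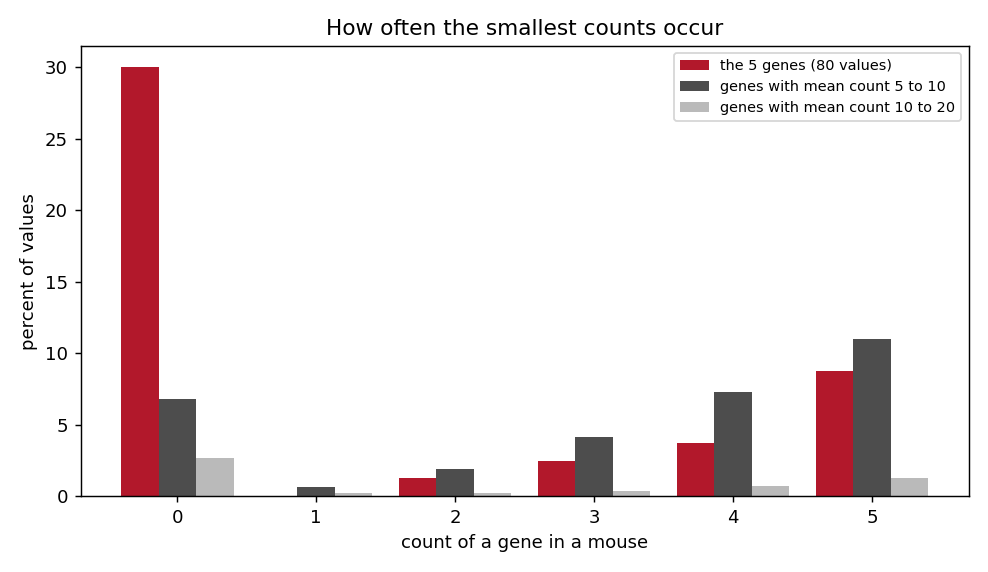
Share of values (y axis, percent) at each count from 0 to 5 (x axis) for the 80 values of the 5 genes and for all genes with a mean count from 5 to 10 or from 10 to 20. In all 3 sets a count of 0 was more frequent than a count of 1, with 30.0% against 0% for the 5 genes.

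In tissue RNA, fewer cells of a type and less RNA per cell cannot be told apart, so markers of cell types that could carry these transcripts are given beside them. The summed level of 12 neuron markers ran from 10.4 to 12.3 CPM in AAV9-GFP sham and from 15.7 to 18.6 CPM in AAV9-GFP TAC hearts, and from 10.4 to 11.6 and from 12.3 to 14.9 CPM with AAV9-Cardinal. Most of it came from Uchl1 and Stmn2, while Snap25, Syt1, Th and Chat, which define neurons and autonomic nerves, had 0 counts in every group. Dbh, an enzyme of sympathetic neurons, averaged 0.808 and 0.505 CPM in AAV9-GFP sham and TAC hearts and 0.986 and 0.518 CPM with AAV9-Cardinal. The 8 Schwann cell markers summed to between 11.0 and 12.2 CPM in AAV9-GFP sham and between 7.01 and 10.7 CPM in AAV9-GFP TAC hearts, and to between 11.7 and 16.4 and between 9.21 and 11.8 CPM with AAV9-Cardinal. The 8 neutrophil markers summed to between 0.649 and 5.13 CPM over the 4 groups, with overlap between sham and TAC in both viruses, and Ly6g, Elane and Mpo were at 0 throughout. The summed atrial markers overlapped between sham and TAC in both viruses (15.8 to 26.6 CPM over all mice). Most of the sum was Tbx5, at 18.8 and 13.1 CPM in AAV9-GFP sham and TAC hearts and 19.5 and 18.6 CPM with AAV9-Cardinal. Dkk3 went the other way, at 1.02 and 3.71 CPM and at 1.02 and 1.99 CPM. Myl4 averaged between 0.885 and 1.25 CPM, and Myl7, Sln and Bmp10 at most 0.118 CPM in any group. The 6 fibroblast markers summed to between 392 and 450 CPM in AAV9-GFP sham and between 600 and 806 CPM in AAV9-GFP TAC hearts, and to between 387 and 422 and between 393 and 621 CPM with AAV9-Cardinal. With AAV9-GFP most of the rise was in Postn (means of 23.0 and 168 CPM), Col1a1 (39.8 and 109 CPM) and Lum (30.3 and 50.7 CPM). The other markers moved little, with Dcn at 306 and 318, Pdgfra at 21.6 and 24.5 and Tcf21 at 2.74 and 3.52 CPM. The part of cardiomyocytes, fibroblasts, Schwann cells and the neuron markers in the changes of the 5 genes was not tested.

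For cartilage and valve, the summed level of the 9 markers was 1.86 to 3.03 CPM in AAV9-GFP sham and 6.17 to 12.8 CPM in AAV9-GFP TAC hearts, and 1.16 to 3.51 and 3.90 to 6.10 CPM with AAV9-Cardinal, while Cnmd counts were lower in TAC mice. Most of the sum was Sox9, a transcription factor of cartilage that fibroblasts can also express, and Comp, which was not called (edgeR adjusted p = 0.144 with AAV9-GFP and 0.419 with AAV9-Cardinal). Chad was at 0.242 and 0.205 CPM in AAV9-GFP sham and TAC hearts and at 0.191 and 0.117 CPM with AAV9-Cardinal. Acan was at 0 in both sham groups and averaged 0.212 CPM in AAV9-GFP TAC and 0.221 CPM in AAV9-Cardinal TAC hearts. Col2a1 averaged at most 0.0481 CPM in any group. Col9a1, Hapln1, Matn3 and Ucma were at 0 in every group.

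Of 25 cartilage and tendon genes other than Cnmd, 12 were tested, and with AAV9-GFP 6 rose and 1 fell after TAC (8.49% and 8.92% over all genes), with a median log2 fold change of 1.18 beside 0.01 over all genes. Cilp, a matrix protein of cartilage and scar, rose from 2.86 ± 0.363 to 35.2 ± 11.3 CPM (SD, n = 4; edgeR adjusted p = 2.75e-05), and Sox9 from 1.18 ± 0.450 to 6.01 ± 1.79 CPM (SD, n = 4; adjusted p = 8.08e-05). Col9a2, a chain of collagen IX, had 0 counts in all 8 sham mice and 16, 20, 13 and 15 counts in AAV9-GFP TAC mice, at least 19.0-fold higher against 3 counts over the group. Col9a2 passed the filter on low counts only through the AAV9-GFP TAC group, so its place among the 6 is a description. In AAV9-Cardinal TAC mice it had 5, 0, 0 and 0 counts. Scx, Fmod and Prg4, known from tendon and joint surfaces, rose as well with AAV9-GFP, and Itm2b, a BRICHOS-domain protein like Cnmd, fell by 0.22 on the log2 scale (adjusted p = 0.00847). With AAV9-Cardinal 2 rose and 0 fell (3.10% and 3.38% over all genes), Cilp by 2.03 and Sox9 by 1.25 on the log2 scale, and the median was 0.38 beside -0.0005 over all genes. Tnmd (tenomodulin), the close relative of Cnmd, had 0 counts in all 16 mice.

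**Figure D4:**
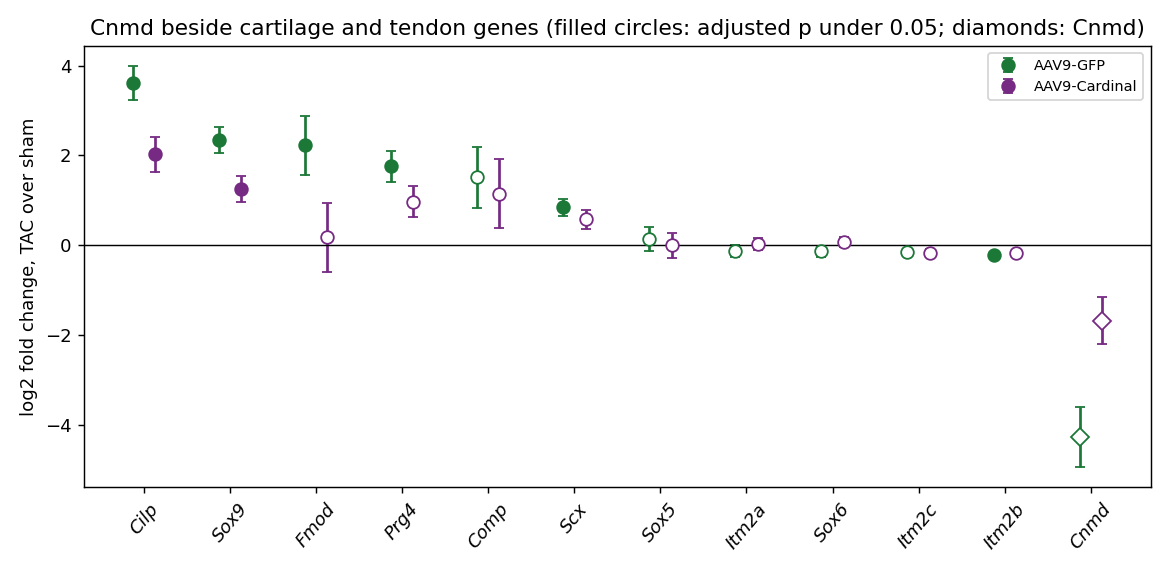
Fitted log2 fold change of TAC over sham (y axis) for the tested cartilage and tendon genes and Cnmd (x axis) in AAV9-GFP and AAV9-Cardinal hearts, with standard errors. Filled circles passed an adjusted p of 0.05, diamonds show Cnmd, whose call is not drawn, and Col9a2 is left out because its sham counts were all 0. Cilp and Sox9 lie above 0 in both viruses and Cnmd below 0.

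Around Pak3, 22 of 23 kinases and partners were tested, and 12 rose and 0 fell with AAV9-GFP (8.49% and 8.92% over all genes). With AAV9-Cardinal 3 rose and 0 fell (3.10% and 3.38% over all genes). The median log2 fold changes were 0.25 and 0.08, beside 0.01 and -0.0005 over all genes. The changes were small. With AAV9-GFP, Pak6 had a log2 fold change of 0.54 and Pak4 of 0.47 (edgeR adjusted p = 0.0171 and 0.00636), Cfl2, an actin-severing cofilin of muscle, rose by 0.27 with AAV9-GFP and by 0.28 with AAV9-Cardinal, and Arhgef6, an exchange factor that binds PAKs, rose by 0.28 with AAV9-Cardinal. Both group I relatives of Pak3 stayed without a call. Pak1 averaged 0.848, 1.17, 0.802 and 0.804 CPM and Pak2 36.8, 38.3, 36.6 and 41.3 CPM, with sham before TAC and AAV9-GFP before AAV9-Cardinal. Per kilobase in AAV9-GFP TAC hearts, Pak2 was at 5.64, Pak1 at 0.297 and Pak3 at 0.0690 CPM.

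Around Ngef, 18 of 21 ephexin family and EphA signaling genes were tested. With AAV9-GFP 2 rose and 1 fell, beside 8.49% and 8.92% of all genes, so the share called was near the background. They were led by Kalrn, a large guanine nucleotide exchange factor, which went from 12.4 to 21.1 CPM (log2 fold change 0.77, SE 0.16, edgeR adjusted p = 0.00324), and by the receptor Epha4, which went from 29.5 to 18.5 CPM (log2 fold change -0.67, SE 0.15, adjusted p = 0.00535). With AAV9-Cardinal 1 rose and 0 fell (3.10% and 3.38% over all genes), and the called gene was Kalrn (log2 fold change 0.64, SE 0.16, adjusted p = 0.0264). The median log2 fold change of the list was 0.08 with AAV9-GFP and -0.02 with AAV9-Cardinal. None of the other tested ephexins was called. In the same order of groups, Arhgef5 averaged 19.4, 21.4, 19.6 and 20.3 CPM, Arhgef15 42.2, 46.1, 44.3 and 42.7 CPM and Arhgef19 18.8, 17.2, 15.2 and 16.2 CPM, and Arhgef16, with 7 counts or fewer in every mouse, was not tested.

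Around Lman1l, all 22 lectins and carriers between the endoplasmic reticulum and the Golgi were tested, and 1 rose and 2 fell with AAV9-GFP and 1 rose and 0 fell with AAV9-Cardinal, beside the same background shares. With AAV9-GFP, the coat protein Sec31a rose (log2 fold change 0.17, edgeR adjusted p = 0.0412), and Lman1 (-0.19, adjusted p = 0.00981) and Tmed10 (-0.17, adjusted p = 0.00847) fell. With AAV9-Cardinal, Ergic2 rose by 0.21 (adjusted p = 0.0387). The medians were 0.03 and 0.04. Lman1 averaged 62.9 and 55.0 CPM in AAV9-GFP sham and TAC hearts and 61.0 and 59.0 CPM in AAV9-Cardinal sham and TAC hearts. Lman2 averaged between 62.1 and 66.5 CPM and Lman2l between 19.1 and 22.1 CPM over the 4 groups, without a call.

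Around Serpinb1c, 8 of 24 clade B serpins and their proteases were tested. Serpinb1a was the 1 called gene with AAV9-GFP, and 0 were called with AAV9-Cardinal at an edgeR adjusted p of 0.05, beside the same background shares. The medians were 0.18 and 0.003.

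The genes most like each member were those with the smallest root mean square difference of log2 CPM over the 16 mice. Nearest to Ngef were Grhl1 (0.98 log2 units), Dok5 (1.00) and Col9a2 (1.12), and Dok5, a docking protein of receptor tyrosine kinases, averaged 0.180 and 0.878 CPM in AAV9-GFP sham and TAC hearts and 0.206 and 0.341 CPM with AAV9-Cardinal. Nearest to Serpinb1c were Ankrd2 (1.16), Muc1 (1.18) and Lman1l (1.18). Ankrd2, a muscle ankyrin-repeat protein, had 0, 9, 0 and 0 counts in AAV9-GFP sham, 34, 22, 22 and 50 in AAV9-GFP TAC, 0 in all AAV9-Cardinal sham and 15, 0, 24 and 10 in AAV9-Cardinal TAC mice. Nearest to Cnmd were the unnamed locus AC115789.5 (0.73), the long noncoding RNA Chaer1 (0.74) and the sphingosine-1-phosphate receptor S1pr5 (0.95). Chaer1 averaged 0.698 and 0.129 CPM in AAV9-GFP sham and TAC hearts and 0.794 and 0.368 CPM with AAV9-Cardinal. Nearest to Lman1l were Kif4 (1.18) and Serpinb1c (1.18), and nearest to Pak3 were Syndig1 (0.83), Eppk1 (0.98) and Neil3 (1.06). Syndig1, known from synapses, averaged 0.0490 and 0.836 CPM in AAV9-GFP sham and TAC hearts and 0.135 and 0.530 CPM with AAV9-Cardinal.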

How the data were processed

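Poly(A)-selected RNA of 16 hearts was sequenced as single-end 50-base reads. The authors deposited raw counts per Ensembl gene. Their processing notes name FastQC, HISAT2 2.1.0, edgeR 3.26.1 and GRCm38; the counting program, annotation, strand setting and handling of reads with several matches are not given in the sources used here. All 55573 genes were read, of which 55394 had a GENCODE M21 symbol, and no column was left unused.

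Counts were fitted in R 4.3.3 with edgeR 4.0.16 (TMM, filterByExpr, quasi-likelihood, all 16 mice, a coefficient per group), with Benjamini-Hochberg adjustment over the 16857 genes tested and a threshold of 0.05. Standard errors are |log2 fold change| over the root of F, and approximate intervals are 1.96 SE either side. Ratios of summed counts, scaled by TMM-adjusted totals, carry exact conditional binomial 95% intervals, which cover counting error only. Tests of each member in mice of 1 virus had been planned; they are not reported, because the rule that chose the members covers both viruses. Alternatives were DESeq2 1.42.0, RLE scaling, other filters, the 8 mice compared, replicate number as a block, prior count 2 and each mouse left out; those for the differences between viruses were chosen after seeing the data. The pipeline was tested on simulated data. Mice of the same group differed by more than sampling noise (chi-square per degree of freedom 5.10 to 14.9), so all were kept; the labels give no batch and do not say that equal numbers are pairs.

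The members and gene lists were chosen with earlier results of these data known. Named genes were the members, fixed close paralogs, per list and virus the 2 called genes with the largest change (others after their values were seen), the 3 genes most like each member (prior count 2, without Gm-number and Rik symbols), threshold neighbours, and Nppa, Nppb, Myh7 and Gm12295. 1 gene that this rule names is not reported here. Positions and 50-base stretches come from GENCODE M21, promoters from RefSeq on GRCm38.p6 (all 5 genes matched), and scripts used Python 3.11.15. Protein sequences were not analysed here.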

Additional observations from a re-analysis of the deposited data

Results flagged for a closer look

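In 7 of the 20 sets of 4 mice (5 genes in 4 groups), a single mouse lay so far from the other 3 that Dixon's ratio passed its 95% limit for 4 values, where chance flags about 1 in 20. In 6 of the 7 the other 3 mice were all at 0, so any count at all passes. These were Ngef in AAV9-GFP sham replicate 1 (0.189 CPM) and AAV9-Cardinal sham replicate 1 (0.407 CPM), Lman1l in AAV9-GFP sham replicate 3 (0.441 CPM) and AAV9-Cardinal sham replicate 1 (0.497 CPM), Pak3 in AAV9-GFP sham replicate 3 (0.245 CPM) and Cnmd in AAV9-GFP TAC replicate 1 (0.214 CPM). The seventh was Cnmd in AAV9-Cardinal TAC replicate 4 (0.517 CPM), where the other 3 mice had 5 counts each. AAV9-GFP sham replicate 3 and AAV9-Cardinal sham replicate 1 each appear for a pair of genes.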

How the results depend on the processing

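The 20 group levels moved by less than their spread under every scaling and omission tried, and no fold change of TAC over sham changed sign. With no filter on low counts the log2 fold change of Serpinb1c with AAV9-Cardinal was 3.10 and that of Pak3 with AAV9-GFP 3.32, and Cnmd with AAV9-Cardinal was at -1.72 with DESeq2 and -1.67 with only the 8 mice compared, each close to the value reported. With AAV9-GFP a prior count of 2 gave 3.02 for Ngef and -3.08 for Cnmd. Without the filter 615 genes were called with AAV9-Cardinal, in place of 1092. The cause was not tested.

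With the replicate number as a block, 31 genes were called with AAV9-Cardinal and 2091 with AAV9-GFP (2934 without). The log2 fold change with AAV9-Cardinal was then 3.25 for Serpinb1c and 1.43 for Pak3, and the Pak3 difference between viruses was -1.92. Numbers 5 and 6 occur only in AAV9-Cardinal TAC mice and 7 only in AAV9-GFP TAC mice. The block gives each of these mice a coefficient of its own, so they add nothing to the comparison. The AAV9-Cardinal TAC group then rests on replicates 1 and 4, so these values cannot be read as an effect of pairing. Same-numbered mice did not deviate together throughout (correlations from -0.016 to 0.149, and not every mouse correlated best with its own number), so the numbers are not taken as pairs. In both viruses, however, sham replicate 1 and TAC replicate 1 had the highest correlation of all (0.149 with AAV9-GFP and 0.130 with AAV9-Cardinal). What these mice share was not tested.

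Leaving out each mouse in turn gave 1962 to 3072 called genes with AAV9-GFP and 384 to 1436 with AAV9-Cardinal, the fewest without AAV9-Cardinal TAC replicate 5. With AAV9-GFP the log2 fold changes ran from 3.91 to 7.50 for Ngef, 3.79 to 5.02 for Serpinb1c, -7.62 to -3.88 for Cnmd, 3.73 to 8.44 for Lman1l and 2.89 to 6.83 for Pak3. With AAV9-Cardinal they ran from 0.93 to 5.70, 2.63 to 3.96, -2.07 to -1.38, 3.18 to 8.21 and 2.45 to 3.54 in the same order. The differences between viruses ran from -6.13 to 1.41 for Ngef, -1.92 to -0.22 for Serpinb1c, 2.20 to 5.93 for Cnmd, -4.82 to 4.08 for Lman1l and -3.66 to 0.29 for Pak3. The stricter filter left out Ngef and Pak3, and the fit of 8 mice left out Ngef and Serpinb1c with AAV9-Cardinal and Pak3 with both viruses, so these have no value there. Depth limits precision, since the highest deposited count of any of these genes in a mouse was 86.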
